A study of Mus musculus with 28 samples.

Results

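The 10 acute-phase genes described here are Saa1, Saa2, Saa3 and Saa4 (serum amyloid A apolipoproteins), Orm1 and Orm2 (alpha-1-acid glycoproteins of plasma), Lcn2 (lipocalin 2, which binds the iron carriers of bacteria), the pentraxins Crp and Apcs (C-reactive protein and serum amyloid P component) and Itih4 (a heavy chain of the inter-alpha-trypsin inhibitor family). They were chosen by name as known acute-phase proteins of the liver, and all 10 were found among the 33856 gene symbols of the deposited tables. The cells came from livers of C57BL/6 males kept on a reversed light cycle, fasted for 2 hours, anaesthetised with ketamine and xylazine, and perfused with collagenase. One table held 4621 wells of paired cells, each a hepatocyte with an attached endothelial cell, from 17 libraries: 2 of mouse 1 aged 6 weeks, 8 of mouse 2 and 7 of mouse 3, both aged 7 weeks. The other held 3720 wells of single non-parenchymal cells, meaning liver cells other than hepatocytes, from 5 libraries of a mouse aged 3 months and 6 of another aged 4 months. The labels name no treatment meant to provoke inflammation. RNA was counted with MARS-seq, a plate method that tags the 3' end of each captured molecule with a unique molecular identifier (UMI), so a level does not grow with the length of the transcript. Nothing in the sources used here maps wells to libraries or mice, so each table is 1 sample, mice were not compared, and intervals are 95% intervals of counting error alone. The tables shared 0 well names.

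In the acute-phase response, cytokines such as interleukin-6 and interleukin-1, released by macrophages and other cells at a site of injury or infection, act on hepatocytes through the transcription factors STAT3, NF-kB and the C/EBP family. Hepatocytes then raise their output of some plasma proteins and lower that of others such as albumin. In the mouse, Saa1, Saa2 and Apcs are major acute-phase proteins and Crp is a minor one, Saa4 is made constitutively, and Saa3 is also made outside the liver, by macrophages and fat cells among others.

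Promoters are shown for the genes whose counts varied most between wells (Saa1, Saa2, Saa3 and Lcn2) and for Saa4, their neighbour, whose counts did not. Each window holds 250 bases before a start site listed by RefSeq on GRCm38.p6, a later build than the mm9 of the deposited counts, and 50 bases from it on. For Saa1 and Saa3 that start lies 201 and 3939 bases inside the outer end of the RefSeq gene, and for the other windows shown it is the outer end. The nearest GENCODE transcript start was 0 to 24 bases away for every window. The windows lie at chr7:46742931-46743230 on the minus strand for Saa1, chr7:46751583-46751882 on the plus strand for Saa2, chr7:46715627-46715926 on the minus strand for Saa3, chr2:32387690-32387989 on the minus strand for Lcn2 and chr7:46732554-46732853 on the minus strand for Saa4. Capitals mark the letters of a C/EBP site, TTGCNNAA, on either strand.
Saa1: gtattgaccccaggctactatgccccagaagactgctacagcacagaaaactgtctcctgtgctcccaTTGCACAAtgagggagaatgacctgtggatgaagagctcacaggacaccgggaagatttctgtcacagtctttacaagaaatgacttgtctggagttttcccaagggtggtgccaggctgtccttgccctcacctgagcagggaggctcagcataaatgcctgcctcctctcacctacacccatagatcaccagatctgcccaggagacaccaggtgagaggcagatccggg
Saa2: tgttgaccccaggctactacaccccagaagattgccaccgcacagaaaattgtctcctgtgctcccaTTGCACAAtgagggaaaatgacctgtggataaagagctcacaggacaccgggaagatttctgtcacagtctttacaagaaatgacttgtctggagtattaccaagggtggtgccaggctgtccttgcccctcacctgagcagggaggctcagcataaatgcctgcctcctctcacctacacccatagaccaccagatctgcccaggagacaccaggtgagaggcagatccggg
Saa3: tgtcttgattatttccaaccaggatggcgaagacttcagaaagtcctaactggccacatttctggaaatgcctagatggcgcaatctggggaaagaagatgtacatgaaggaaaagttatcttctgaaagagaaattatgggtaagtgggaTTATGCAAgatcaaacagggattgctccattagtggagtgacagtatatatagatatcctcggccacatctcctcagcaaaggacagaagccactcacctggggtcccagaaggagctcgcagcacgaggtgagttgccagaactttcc
Lcn2: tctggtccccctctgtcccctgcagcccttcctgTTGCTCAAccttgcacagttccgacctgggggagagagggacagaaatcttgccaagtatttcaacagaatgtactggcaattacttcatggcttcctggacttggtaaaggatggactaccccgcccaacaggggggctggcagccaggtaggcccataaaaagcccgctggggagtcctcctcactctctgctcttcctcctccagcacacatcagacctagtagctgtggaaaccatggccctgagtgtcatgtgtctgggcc
Saa4: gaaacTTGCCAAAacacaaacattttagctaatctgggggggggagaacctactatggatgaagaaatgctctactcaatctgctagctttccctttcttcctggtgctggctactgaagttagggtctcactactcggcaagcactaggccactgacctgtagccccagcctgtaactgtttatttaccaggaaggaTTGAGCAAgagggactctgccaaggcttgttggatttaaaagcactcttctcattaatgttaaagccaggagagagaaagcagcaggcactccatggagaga

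The Saa1 and Saa2 windows were 95.3% identical, and both hold TTGCACAA, at positions -182 to -175 and -183 to -176 from the start. Promoters of 9 members were in the table, all but Orm1, and 6 of the 9 hold the C/EBP letters, among them Orm2 at -120 to -113, against 10.8% of 32544 promoters of the same length. The STAT letters TTCNNNGAA stand in 2 of 9 windows (Apcs and Itih4), against 8.33% of all promoters, and the NF-kB motif in 0 of 9, against 8.49%, both read on either strand. The TATA letters TATAAA on the gene's own strand stand in 2 of 9 (Crp and Orm2), against 8.28%. These are matches of letters in short windows and not measured binding.

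Near copies limit what the counts can tell apart. The last 300 bases of the transcripts, where MARS-seq reads fall, were 92.4% identical between Saa1 and Saa2 and 97.7% between Orm1 and Orm2, so the split of counts within each of these pairs of genes is uncertain. The same stretch was 50.7% identical between Saa1 and Saa3. RefSeq also lists Saa2 as an older symbol of Saa1 and Saa1 as one of Saa2, so which copy each row of the deposited table counts is uncertain.

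The pair wells fall into 17 plate-sized runs of well numbers, here called blocks, and blocks 1 and 2 stand apart from the other 15. Block 1 holds 8 wells and block 2 holds 67, against 283 to 320 in each other block. Together they are 1.62% of the pair wells and 3.09% of the gene UMIs. Their median pairs held 23400.5 and 21427 UMIs, against block medians of 7400.5 to 13252 in the others, and the pairs of the whole table ran from 2423 to 49311 UMIs around a median of 10450. Block numbers 1 to 16 and 41 are also the numbers in the titles of the pair libraries, where 1 and 2 are those of mouse 1, but no source states that a block is a library. Mouse, age, library and handling therefore cannot be told apart in these blocks. Results that rest on blocks 1 and 2 are given below with and without them.

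Outside blocks 1 and 2, 5 of the genes were widely detected. Over the 4546 wells of the other 15 blocks, Itih4 had 982 UMIs per 1000000 gene UMIs (written CPM from here on) and a UMI in 99.4% of wells, Saa4 had 596 CPM in 96.0% of wells, and Orm1 had 468 CPM in 94.3%. Crp had 201 CPM in 82.5% of wells, and Apcs had 112 CPM in 62.3%. The other 5 were sparse or uneven. Saa1 had 163 CPM in 53.1% of wells, Saa2 had 51.3 CPM in 10.6%, and Saa3 had 21.1 CPM in 5.32%. Orm2 had 661 UMIs (11.1 to 12.9 CPM) in 12.5% of wells and Lcn2 had 6.36 CPM in 4.25%.

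In blocks 1 and 2, the serum amyloid genes Saa1 and Saa2 were among the most abundant mRNAs, and Orm1, Orm2, Lcn2 and Apcs were also far higher than in any other block. Over the list, 9 of the 10 members were above all 15 other blocks in both block 1 and block 2, beside 5.18% of the 5018 genes with at least 1000 UMIs, which leave out Lcn2 with 968. The 1 remaining member, Saa4, was below them in both, beside 31.9% of those genes. Saa1 had 13759 CPM in block 1 and 13209 in block 2, against 97.6 to 278 (median 164) in the other 15 blocks. Its level in block 2 was a log2 ratio of 6.34 (interval 6.31 to 6.38) above the sum of the other blocks. Every pair of both blocks held Saa1, with 166 to 694 UMIs in block 1 and 54 to 878 (median 261) in block 2, against a median of 1 UMI elsewhere. The groups of blocks did not overlap. Saa2 had 13143 CPM in block 1 and 10328 in block 2, against 7.85 to 169 (median 46.5) in the others, a log2 ratio of 7.65 in block 2. Every pair of both blocks held it too, from 29 to 785 UMIs in block 2, while 10.6% of pairs elsewhere had any.

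The 2 alpha-1-acid glycoprotein genes differed in size. Orm1 had 4112 and 3754 CPM in blocks 1 and 2, against 301 to 694 in the other blocks, a log2 ratio of 3.00 (2.96 to 3.05) for block 2. Orm2 had 1207 and 491 CPM, against 7.75 to 17.5, a log2 ratio of 5.36 (5.21 to 5.51). Lcn2 had 416 and 343 CPM in blocks 1 and 2, against 1.09 to 14.5 elsewhere, a log2 ratio of 5.75 (5.56 to 5.95). For all 3 genes both blocks lay above each of the other 15.

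The pentraxins and Itih4 were less far apart, and Saa4 went the other way. Apcs had 532 and 457 CPM in blocks 1 and 2, against 84.3 to 141 in the others, and Crp had 322 and 296 CPM, against 151 to 236. In block 2 these are log2 ratios of 2.03 for Apcs and 0.56 (0.43 to 0.70) for Crp. Itih4 had 1729 and 2621 CPM, against 880 to 1157, a log2 ratio of 1.42 in block 2. Saa3 had 73.8 and 137 CPM, against 3.90 to 40.3, with a log2 ratio of 2.70 in block 2, but only 2 of the 8 pairs of block 1 and 35 of the 67 of block 2 held a UMI of it. Saa4 had 316 and 303 CPM in blocks 1 and 2, against 473 to 760 in the others, a log2 ratio of -0.98 (-1.11 to -0.85) in block 2.

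**Figure D1:**
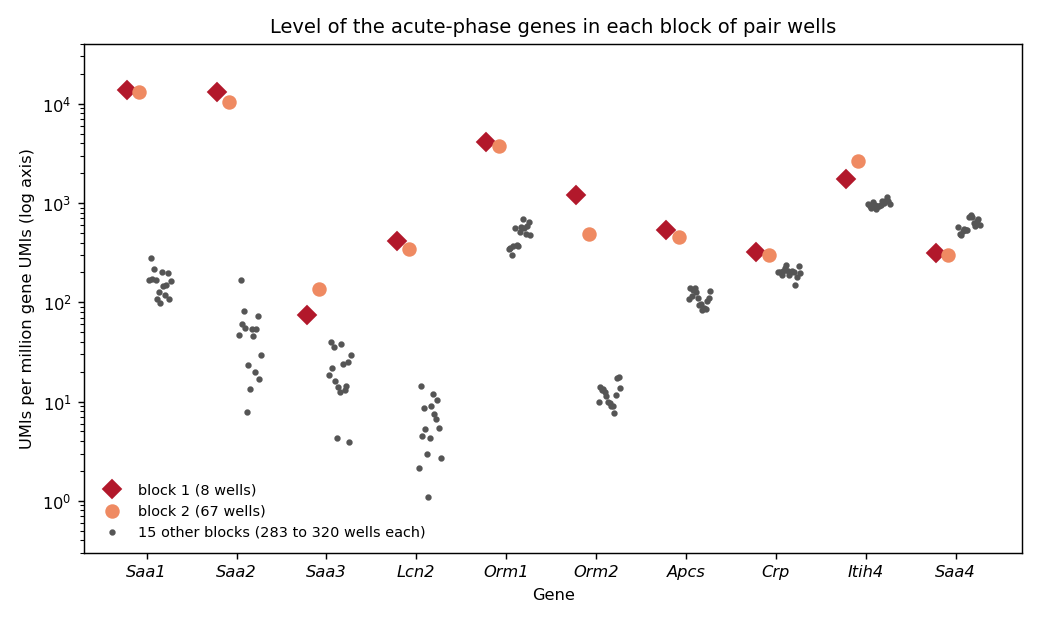
CPM (log axis) of each gene in block 1, block 2 and the other 15 blocks of pair wells, 1 point per block. Blocks 1 and 2 lie above all 15 others for 9 genes, with Saa2 at 283 and 222 times the median of the others, and below them for Saa4.

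The median of the 5018 genes had a log2 ratio of -0.29 in block 2 and -0.54 in block 1 against the other blocks. Of those genes, 4 were at least 10-fold higher in block 2 than in the median other block. Ranked by the smaller of their folds in blocks 1 and 2, these genes were led by Saa2, Saa1 and Orm2, followed by Aqp8 (a water channel), Orm1, Tubb2a (a tubulin), Dhcr7 (cholesterol synthesis), Bhmt (betaine metabolism) and Apcs. Lcn2, with too few UMIs to be among the 5018, had folds of 76.3 and 62.8. The 10 members together took 3.56% of gene UMIs in block 1 and 3.19% in block 2, against 0.224% to 0.300% in each other block. Blocks 1 and 2 hold 72.2% of all Saa1 UMIs of the table, 86.9% of Saa2, 63.7% of Lcn2, 60.2% of Orm2, 20.5% of Orm1, 16.5% of Saa3, 11.7% of Apcs, 7.57% of Itih4, 4.53% of Crp and 1.60% of Saa4.

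Depth and the score of lobule position moved with these blocks, so levels were also compared among pairs of like depth and score. The score, explained below, rests on landmark genes, so a block-wide change in those genes cannot be told apart from position. Among pairs with at least 20000 UMIs, a depth chosen after the block values were seen, 42 pairs of blocks 1 and 2 held 156 to 878 Saa1 UMIs (median 386.5), against 0 to 160 (median 2) in 626 pairs of the other blocks, with median depths of 30455 and 24965 UMIs. The level was 100-fold higher for Saa1 and 335-fold for Saa2 in these deep pairs of blocks 1 and 2, 8.35-fold for Orm1, 42.4-fold for Orm2 and 78.9-fold for Lcn2, and it was 0.537 times for Saa4. In each of the 6 lobule layers explained below, block 2 had 67.9 to 104.9 times the Saa1 level of the other 15 blocks, 139 to 442 times the Saa2 level, 6.77 to 10.6 times that of Orm1 and 24.0 to 58.5 times that of Orm2. Layers 2 to 4 of block 2 hold 1 to 4 pairs each. For Saa1, Orm1 and Orm2 the fold in each layer lay within 2-fold of that among deep pairs. For Saa2 it did not in layer 3, at 139 against 335. The deep pairs were of blocks 1 and 2 together, and the layers of block 2 alone.

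The ratios between serum amyloid counts also differed, though the split of counts between Saa1 and Saa2 is uncertain, as said above. Blocks 1 and 2 had 95.5 and 78.2 Saa2 UMIs per 100 Saa1 UMIs, against 7.29 to 61.0 (median 27.5) in the other blocks. They had 0.536 and 1.04 Saa3 UMIs per 100 Saa1, against 3.62 to 18.5 (median 12.6). Both ratios lie outside the range of the other 15 blocks, Saa2 above it and Saa3 below it.

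Marker lists of many other cells also summed to more in block 2, though many of their single markers were at 0 in both blocks. Of 15 marker lists other than that of hepatocytes, 9 summed to more in block 2 than in any of the other 15 blocks. In block 1, 2 lists did so. These counts are of sums over lists and have no share of all genes beside them. The 9 monocyte and macrophage markers summed to 0 and 24.9 CPM in blocks 1 and 2, against 1.08 to 3.90 in the other blocks, with S100a4, F13a1 and Cx3cr1 at 0 in both. The 8 neutrophil markers summed to 0 and 4.46, against 0 to 0.652, with Retnlg, Csf3r, Cxcr2, Mmp8, Ngp and Camp at 0. The 7 B cell markers summed to 5.27 and 19.8, against 0.241 to 3.99, and the 8 T cell markers to 0 and 6.37, against 0 to 2.85, with Cd3g, Themis and Il7r at 0. The 6 cholangiocyte markers summed to 10.5 and 19.1, against 3.45 to 11.4, with Epcam, Krt19, Krt7 and Cldn4 at 0. The 10 Kupffer cell markers summed to 47.4 and 90.5, against 62.4 to 81.7, with Timd4 at 0, and the 8 dendritic cell markers to 5.27 and 8.28, against 1.08 to 7.92, with Xcr1, Clec9a, Flt3 and Cd209a at 0. The 4 plasma cell markers summed to 311 and 364, against 227 to 324, and the 6 plasmacytoid dendritic cell markers to 190 and 222, against 137 to 200, with Siglech, Ccr9, Klk1 and Cox6a2 at 0. The 12 endothelial markers, at 912 and 888 CPM against 723 to 893, were above the others in block 1 and within their range in block 2. The 5 erythroid markers summed to less in both, at 21.1 and 79.0 CPM against 86.4 to 136, with Hba-a1, Hba-a2 and Slc4a1 at 0. The lists of NK cells, stellate cells or fibroblasts, basophils or mast cells, and cycling cells were above the other blocks in neither. The 9 hepatocyte markers summed to 109600 and 105071 CPM, against 108035 to 142466, so the wells of every block carried hepatocyte RNA as their label says. In block 1 the floor of 3 UMIs is 15.8 CPM, which a sum of 0 there allows. Of 14 early-response genes that handling of cells can change, listed after the block values were seen, 5 were below all other blocks in both (Jun, Jund, Ier3, Btg2 and Hspa1b), 1 was above them (Dusp1), and their sum was 1276 and 1068 CPM, against 1129 to 1733. Of the 8 with at least 1000 UMIs, 4 were below and 1 above, beside 31.9% and 5.18% of all such genes. The part of these cells and of handling in the result was not tested.

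Other genes of the response were less uniform than the members. Of 34 further positive acute-phase genes, 30 reached 1000 UMIs, and 7 of these were above all other blocks in both blocks 1 and 2, beside 5.18% of all genes: Hp (haptoglobin, which binds free haemoglobin), Hpx (hemopexin, which binds haem), C3 (a complement component), Itih3, Lrg1, Fgl1 and Serpina1c. Hp had 5414 and 10167 CPM, against 2075 to 3661, and Hpx had 8751 and 16996, against 3470 to 6439. Fgl1 (a fibrinogen-like secreted protein) had 1640 and 1564, against 367 to 492, and Itih3 had 1244 and 1560, against 362 to 467. A further 5 were below all other blocks in both, beside 31.9%: Steap4, Mbl1, Mbl2, Vnn1 and Tat. The median log2 ratio of the 30 genes was 0.12 in block 1 and 0.25 in block 2, beside -0.54 and -0.29 for all genes.

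Negative acute-phase genes did not move together. Of 19, 3 were above all other blocks in both (Trf, Ahsg and Itih1) and 3 were below (Igf1, Cyp3a11 and Cyp7b1), with a median log2 ratio of -0.22 in block 1 and -0.11 in block 2. Trf, which encodes transferrin, had 21303 and 23542 CPM in blocks 1 and 2, against 10655 to 12796 in the others. Of 30 genes that carry interleukin-6, interleukin-1 and TNF signals to hepatocytes, 17 reached 1000 UMIs, 0 were above, beside 5.18% of all genes, and 8 were below, beside 31.9%: Il6ra, Jak1, Il1r1, Irak1, Nfkbia, Cebpb, Hnf4a and Nr3c1. Cebpb, a C/EBP family factor, had 42.2 and 130 CPM, against 280 to 689, and Nfkbia, the inhibitor of NF-kB that NF-kB itself induces, had 5.27 and 33.8, against 72.0 to 173. Il6ra, the interleukin-6 receptor, had 10.5 and 30.6, against 63.6 to 154. The median log2 ratio of the 17 genes was -0.99 in block 1 and -0.34 in block 2, beside -0.54 and -0.29 for all genes.

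The pairs also place each hepatocyte along the liver lobule, from the central vein to the portal vein. A score set the UMIs of 13 pericentral landmark genes (such as Glul and Cyp2e1) against 12 periportal ones (such as Cyp2f2 and Hal), and 4618 pairs with enough UMIs were split into 6 equal layers, layer 1 nearest the central vein, and into pericentral and periportal outer tertiles of 1540 and 1539 pairs. Of 4618 pairs, 1007 lay within 0.05 of a tertile limit. Blocks 1 and 2 weigh on the ends of this axis: 40 of their 74 kept pairs fell in layer 1, and their median scores were 0.74 and 0.77, against block medians of 0.36 to 0.68. Saa1 is an example. Over all 17 blocks it had 1400, 256, 255, 299, 497 and 691 CPM from layer 1 to layer 6, and over the other 15 blocks it had 158, 156, 126, 179, 150 and 207, with 136 in layer 4 once 1 pair of 397 Saa1 UMIs is left out.

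**Figure D2:**
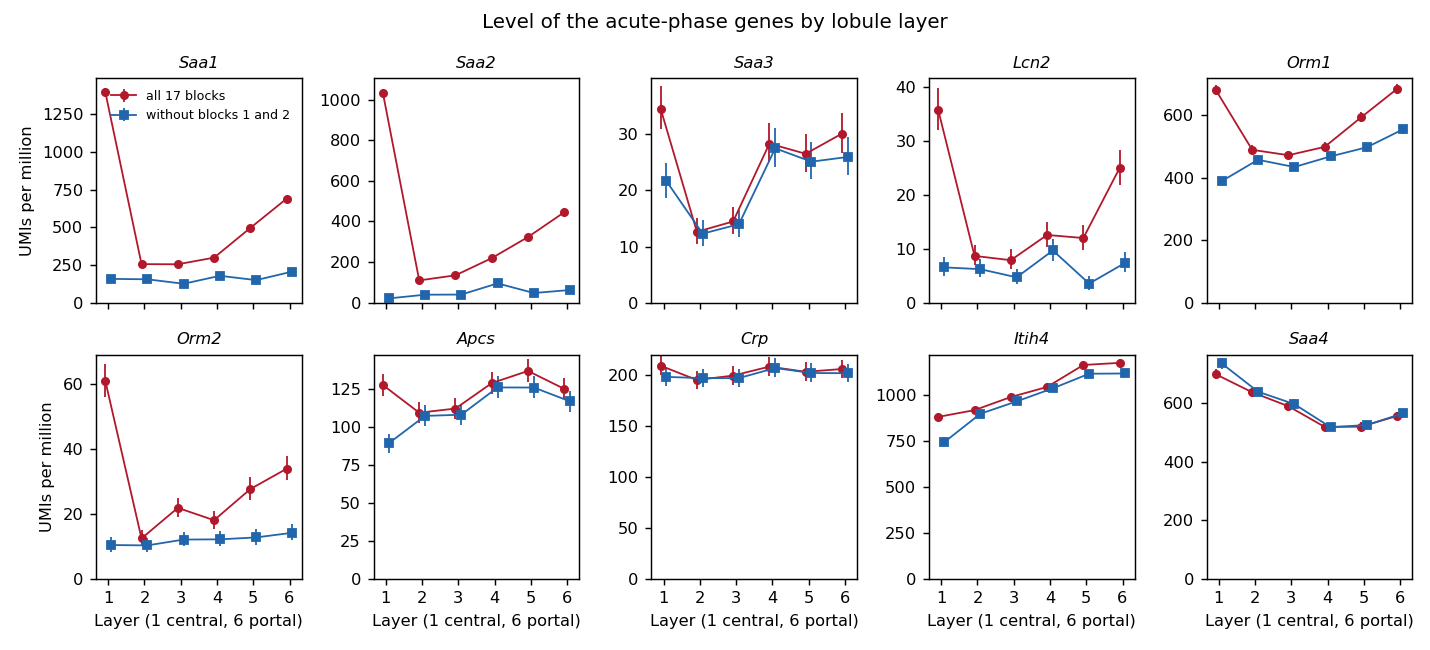
CPM of each gene in lobule layers 1 (central) to 6 (portal), with 95% Poisson intervals, for all 17 blocks and for the 15 blocks other than 1 and 2. For Saa1, Saa2, Lcn2 and Orm2 the high ends of the all-block curve go with blocks 1 and 2, while Itih4 climbs toward the portal end in both curves and Crp is level in both.

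Without blocks 1 and 2, 4 genes kept a direction in nearly every block. Itih4 climbed from the central to the portal end, with 744, 899, 967, 1038, 1118 and 1119 CPM in layers 1 to 6. Its level was 824 CPM in pericentral pairs and 1118 in periportal pairs, a log2 ratio of -0.44 (-0.47 to -0.41), and it was lower in the pericentral pairs of 15 of 15 blocks with zones taken within each block. Orm1 had 390, 458, 435, 469, 498 and 556 CPM in layers 1 to 6, with 425 in pericentral and 527 in periportal pairs, a log2 ratio of -0.31 (-0.36 to -0.27) and the same direction in 15 of 15 blocks. Saa4 ran the other way. It had 735, 639, 597, 518, 525 and 565 CPM in layers 1 to 6, with 686 in pericentral and 545 in periportal pairs, a log2 ratio of 0.33 (0.29 to 0.37), and was higher in the pericentral pairs of 14 of 15 blocks. Apcs had 98.4 CPM in pericentral and 121 in periportal pairs, a log2 ratio of -0.30 (-0.39 to -0.21), in 13 of 15 blocks.

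The other 6 genes were less regular. Crp was level, with 198, 197, 197, 207, 202 and 202 CPM in layers 1 to 6 and a log2 ratio of -0.03 (-0.10 to 0.04). Saa2 had 21.1, 39.5, 40.1, 95.2, 47.7 and 62.6 CPM in layers 1 to 6. A single pair with 475 Saa2 UMIs lies in layer 4, and without it that layer had 44.2 CPM, between layers 3 and 5. This pair is in neither outer zone, so the zone ratios were the same without it. The Saa2 log2 ratio was -0.86 (-1.01 to -0.70), in 11 of 15 blocks, and Saa3 had -0.60 (-0.81 to -0.39), in 9 of the 14 blocks with at least 10 of its UMIs. With zones within blocks these are -0.78 for Saa2 and -0.29 for Saa3. Few pairs carry these ratios: 44 of 4544 pairs, chosen for their Saa2, held 71.0% of Saa2 and 60.2% of Saa3 UMIs. Intervals of counting error leave out this spread between pairs. Over all blocks, the Saa3 ratio was 0.20 (-0.11 to 0.51) without the top 1% of pairs. Saa1 had -0.19 (-0.26 to -0.12) but that direction in 8 of 15 blocks, and Orm2 had -0.38 (-0.66 to -0.10) in 10 of 15. The Lcn2 interval, -0.19 to 0.61 around 0.21, includes 0.

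With blocks 1 and 2 included, the ratios of Saa1, Saa2 and Orm2 change sign. The all-block log2 ratios between pericentral and periportal pairs were 0.47 (0.44 to 0.51) for Saa1, 0.56 (0.52 to 0.60) for Saa2 and 0.25 (0.09 to 0.41) for Orm2, and with zones taken within each of the 17 blocks they were -0.25, -0.29 and -0.26. In block 2 alone, with 22 pericentral and 22 periportal pairs, Saa1 had -0.33 (-0.38 to -0.28), Saa2 -0.30 (-0.36 to -0.25), Orm1 -0.52 (-0.61 to -0.42), Orm2 -0.46, Lcn2 -0.68 and Itih4 -0.56. These 6 are lower in pericentral pairs, as 5 of them are in the other 15 blocks, where the Lcn2 interval includes 0. Saa4 had 0.50 (0.18 to 0.82) and Saa3 0.57 (0.10 to 1.04) in block 2, both higher in pericentral pairs, which for Saa3 is the opposite of its direction in the other 15 blocks. The intervals of Crp and Apcs include 0 there.

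**Figure D3:**
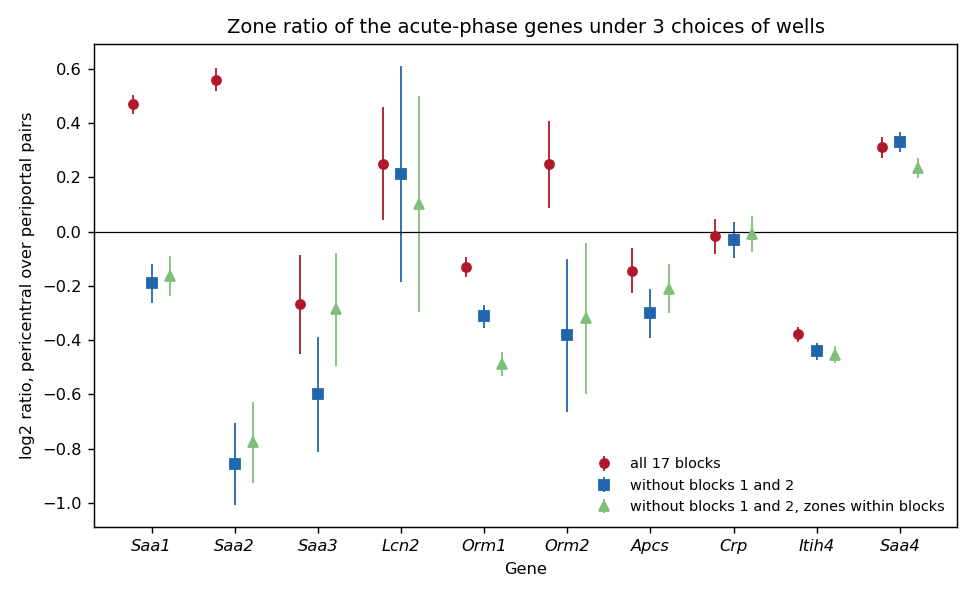
Log2 ratio of each gene, pericentral over periportal pairs, with 95% conditional binomial intervals, for all 17 blocks, without blocks 1 and 2, and without them with zones taken within blocks. Saa1, Saa2 and Orm2 lie above 0 with all blocks and below 0 without blocks 1 and 2, while Itih4, Orm1, Apcs and Saa4 keep their side of 0.

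By count, 0 of 10 members were at least 1.5-fold higher in pericentral pairs over all blocks and 0 in periportal pairs, beside 8.79% and 4.85% of the 11434 genes tested. Without blocks 1 and 2 the counts were 0 and 2 (Saa2 and Saa3), beside 8.8% and 5.03% of 11349 genes. Most UMIs of Saa2 and Saa3 lay in few pairs. Intervals lay apart from 0 for 5 members on the pericentral side and 4 on the periportal side over all blocks, beside 28.5% and 12.1%, and for 1 and 7 without blocks 1 and 2, beside 28.1% and 12.2%. The median gene had a log2 ratio of 0.08 in both settings, and the median of the 10 members was 0.12 over all blocks and -0.31 without blocks 1 and 2.

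By median ratio and by intervals, other acute-phase genes leaned to the portal side whether they are positive or negative. Over all blocks, 31 further positive genes were tested. Of these, 2 were at least 1.5-fold higher in pericentral pairs and 6 in periportal pairs, beside 8.79% and 4.85% of all genes. Their median log2 ratio was -0.32, beside 0.08 for all genes. Intervals lay above 0 for 5 and below 0 for 23, beside 28.5% and 12.1% of all genes. The genes of largest ratio were Lect2 (a secreted chemotactic protein), at 3.44, and Vnn1 (pantetheinase), at 1.84, on the pericentral side, and Hpx at -1.07 and Mt1 (a metallothionein) at -0.79 on the periportal side. Of 19 negative genes 3 were past that fold on the pericentral side, beside 8.79% of all genes: Cyp3a11 at 1.61, Pon1 at 1.36 and Cyp7b1 at 1.09. On the periportal side 1 was past it, beside 4.85%: Alb (albumin) at -1.06. The median of the negative genes was -0.31, with intervals above 0 for 6 and below 0 for 13, beside 28.5% and 12.1%. The 29 signalling genes tested had a median of -0.08, with Cebpd at 1.14 and Cebpb, another C/EBP factor, at 0.45 on the pericentral side. Past the fold were 1 of them (Cebpd) on the pericentral side, beside 8.79% of all genes, and 2 on the periportal side, beside 4.85%. These 2 were Osmr (-0.77) and Relb (-0.63), with fewer than 100 UMIs each and named after their values were seen. Il10rb (-0.54) and Nfkb2 (-0.53), short of that fold, had intervals that include 0 once zones are taken within blocks.

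Within the 15 ordinary blocks, Saa1, Saa2, Saa3 and Lcn2 were concentrated in few pairs. The 228 pairs (5%) with the most UMIs of a gene held 91.1% of Saa2, 98.8% of Saa3, 100% of Lcn2 and 50.5% of Saa1 UMIs, against a median of 27.3% and a 95th percentile of 39.3% over 4927 genes with at least 1000 UMIs. Lcn2 was found in 193 wells in all, fewer than 228, so its share could only be 100%. Saa3 was found in 242, so its share is near the highest the measure allows, and Orm2, at 48.3%, was sparse as well. Lcn2 and Orm2, with 351 and 661 UMIs, had fewer than the genes they are set against. The squared coefficient of variation beyond counting error has the counting variance taken off. It was 125 for Saa2, 67.3 for Lcn2, 62.2 for Saa3 and 13.7 for Saa1, against a median of 0.139 and a 95th percentile of 0.457 over all these genes, and 0.746 for Orm2. The pair with 475 Saa2 UMIs weighs on this: without it the values were 48.3 for Saa2, 25.2 for Lcn2, 53.8 for Saa3 and 8.03 for Saa1. The remaining genes were below the 95th percentile. Apcs, at 0.301 (percentile 86.8), and Orm1, at 0.149, were above the median gene. Saa4, at 0.0961, Crp, at 0.0643, and Itih4, at 0.0608, were below it.

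**Figure D4:**
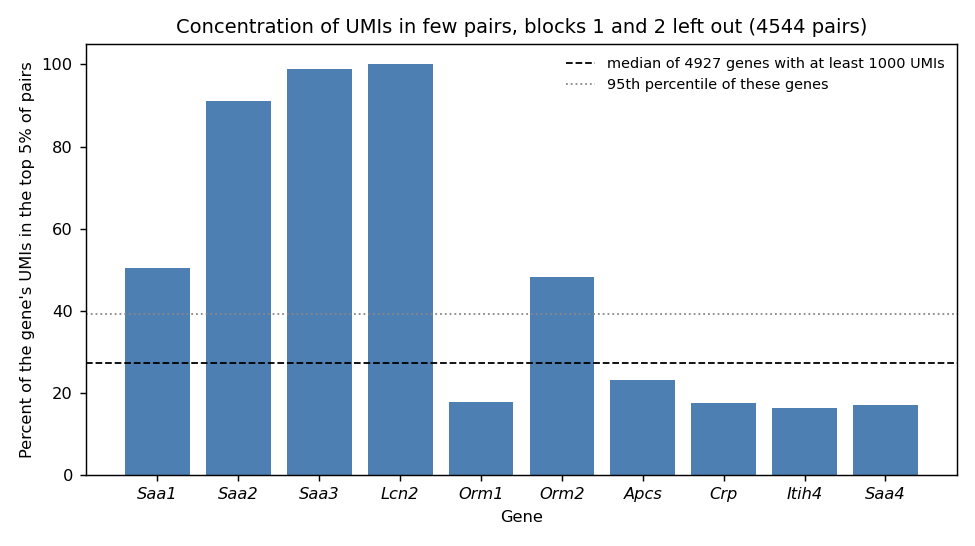
Percent of each gene's UMIs that lie in the 5% of pairs with the most UMIs of that gene, over 4544 pairs outside blocks 1 and 2, with the median and the 95th percentile of all genes with at least 1000 UMIs. Saa2, Saa3 and Lcn2 stand above 90% and Saa1 and Orm2 near 50%, while the other 5 genes are below the median of 27.3%.

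In block 2, Saa1, Saa2, Saa3 and Lcn2 varied less between pairs than in the other blocks. The squared coefficient of variation over its 66 kept pairs was 0.0830 for Saa1, 0.162 for Saa2, 0.0555 for Orm1 and 0.338 for Lcn2, and it was 3.48 for Saa3, against a median of 0.0748 and a 95th percentile of 0.426 over 182 genes with at least 1000 UMIs in that block. Saa3 was thus uneven in block 2 as well, and Saa2 and Lcn2 were above the median gene. Saa3 and Lcn2, with 215 and 536 UMIs there, had fewer than the genes they are set against. High Saa1 and Saa2 were shared by all pairs of block 2, whose Saa1 levels ran from 5476 to 22290 CPM (median 12417), whereas elsewhere a few pairs were high.

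Outside blocks 1 and 2, pairs chosen for their Saa2 also carried more Saa1, Saa3, Lcn2 and Orm2. In 44 of 4544 pairs, 10 or more Saa2 UMIs were found, a limit chosen after the counts were seen, and these pairs held 71.0% of the Saa2 UMIs. They also held 60.2% of the Saa3, 47.9% of the Lcn2 and 30.1% of the Saa1 UMIs. Saa3 was found in 84.1% of the 44 pairs and in 4.56% of the other 4500, and Lcn2 in 72.7% and 3.58%. Saa1 had 4030 CPM in the 44 pairs and 115 in the rest, Saa3 had 1043 and 8.49, and Lcn2 had 250 and 3.36. Orm2 had 67.1 CPM in the 44 pairs and 11.3 in the rest, and was found in 45.5% and 12.2% of them. The choice of pairs fixed that Saa2 was high in them, and Saa1 may share reads with Saa2. The widely detected genes differed less: Orm1 had 817 CPM in the 44 pairs and 464 in the rest, Apcs 233 and 111, Itih4 1265 and 979, Crp 240 and 200, and Saa4 669 and 595.

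These 44 pairs were scattered. They came from 13 of the 15 blocks, with 0 to 9 pairs per block, and from all 6 layers, with 4, 5, 8, 7, 10 and 10 pairs in layers 1 to 6. Their median depth was 14692.5 UMIs, against 10298.5 in the rest, and their median score was 0.33, against 0.53. Marker sums in all 44 pairs were 1 UMI for neutrophils (1.49 CPM, against 0.110 in the rest) and 2 for monocytes and macrophages (2.98, against 2.38). They were 73.0 CPM for Kupffer cells, against 72.4 in the rest. Dendritic cell markers summed to 22.4 CPM (15 UMIs), against 3.17, and hepatocyte markers to 113732, against 120312. Plasmacytoid dendritic cell markers summed to 218 CPM (184 to 256), against 163, and endothelial markers to 647 (587 to 711), against 813. Whether attached or captured dendritic cells have a part in these pairs was not tested.

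Correlations over the 4544 pairs, taken around the mean of each block and layer on a log2 scale of 1 + UMIs per 10000, describe the same grouping. They were 0.60 between Saa2 and Saa3, 0.49 between Saa1 and Saa2, 0.44 between Saa1 and Saa3, 0.44 between Saa3 and Lcn2, 0.43 between Saa2 and Lcn2 and 0.28 between Saa1 and Lcn2. Pairs share libraries and depth, and Saa1 and Saa2 may share reads, so these are descriptions. Among 5185 other genes, the pattern most like that of Saa1, Saa2 and Saa3 was that of Cxcl9, an interferon-induced chemokine, with 0.31, 0.43 and 0.50, followed in each case by Saal1, Hpx and Hp. Saal1 had 0.23, 0.25 and 0.32, and it lies next to Saa3 on chromosome 7. Whether these neighbours share reads was not tested. Saa4 was most like Apoc1 (0.30) and Gpx1 (0.26), and Itih4 most like Vtn (0.26) and Hpx (0.25). Orm1, Crp and Apcs had no gene above 0.2. In block 2 the correlation of Saa1 with Saa2 was 0.91 over 66 pairs and that of Saa1 with Saa3 was -0.01.

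In the single non-parenchymal cells, the members were mostly at trace level, apart from Lcn2 and Saa3. Of 3720 wells, 2692 had at least 300 UMIs (median 710) and were clustered and named by marker genes. Lcn2 had 40 UMIs in these 2692 wells. Of these 40, 32 (80%) lay in 12 of the 29 wells of the neutrophil-like cluster, a level of 2381 CPM (interval 1628 to 3361). Over all 3720 wells, Lcn2 had 31 UMIs in wells of lower numbers and 32 in wells of higher numbers. The share of 80% thus leaves out Lcn2 in wells below 300 UMIs. Among the kept wells, Lcn2 had 3 UMIs in 835 endothelial-like wells, 2 in 106 dendritic-like wells, 1 in 247 Kupffer-like wells and 0 in 97 monocyte/macrophage-like wells. Lcn2 is itself among the leading genes of that cluster and helped to define it, so this is a description. With the 10 members left out of the clustering, a cluster of 27 wells led by Retnlg, S100a8, Lcn2 and S100a9 held the same number, 32 of 40. That cluster had 7 neutrophil markers and 7 of another list, so it kept no name.

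Saa3 was found mainly in monocyte/macrophage-like wells. They held 14 of its 22 UMIs in the kept wells (63.6%), in 4 of 97 wells, a level of 108 CPM (59.3 to 182). It had 0 UMIs in Kupffer-like, dendritic-like and neutrophil-like wells, where the upper limits of the intervals were 12.1, 19.2 and 274 CPM. The Saa3 of those 4 wells was 87.7 times (75.4 with blocks 1 and 2 included) what the hepatocyte genes Alb, Apoa1, Apoa2, Ttr and Fabp1 in the class would bring at the ratio seen in pairs. Saa3 is a macrophage product in the mouse as well as a hepatocyte one.

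The other 8 members had 0.411 to 4.81 times the count that hepatocyte RNA in these wells would bring at the ratio seen in pairs of the 15 ordinary blocks. Hepatocyte genes made up 0.76% of the UMIs of all kept wells. Itih4 had 272 UMIs (110 CPM) and Orm1 166 (67.3 CPM), which is 1.59 and 2.04 times that count. Saa1 had 29 UMIs, 1.03 times that count, Saa4 had 76, 0.734 times, Crp had 43, 1.23 times, and Saa2 had 10, 1.12 times. Apcs had 8 UMIs, at 0.411 times, and Orm2 had 10, at 4.81 times, so the ends of the range rest on few counts. At the ratio of all 17 blocks, Orm2 had 1.97 times the count, Saa1 0.293 and Saa2 0.152 times, Orm1 1.67 times, and Itih4, Saa4, Crp and Apcs 1.51, 0.743, 1.21 and 0.373 times. At the ratio of the 15 blocks, Orm1 was 2.11 times the count in both Kupffer-like and endothelial-like wells and 4.64 times in dendritic-like wells, where it had 17 UMIs, and the Poisson intervals lay above that count in these 3 classes and in B-like, NK-like and 1 unnamed cluster of wells. Those of Itih4 lay above it in endothelial-like wells, with 101 UMIs and 2.12 times, and in B-like and Kupffer-like wells, at 2.04 and 1.53 times. No class showed a level of Saa1 above 24.5 CPM except the 30 hepatocyte-like wells, with 84.2 (10.2 to 304) from 2 UMIs. Those wells also had raised markers of another cell list. Pairs and single cells came from different mice of different ages, so a small excess over hepatocyte RNA cannot be told apart from a difference between those mice.

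**Figure D5:**
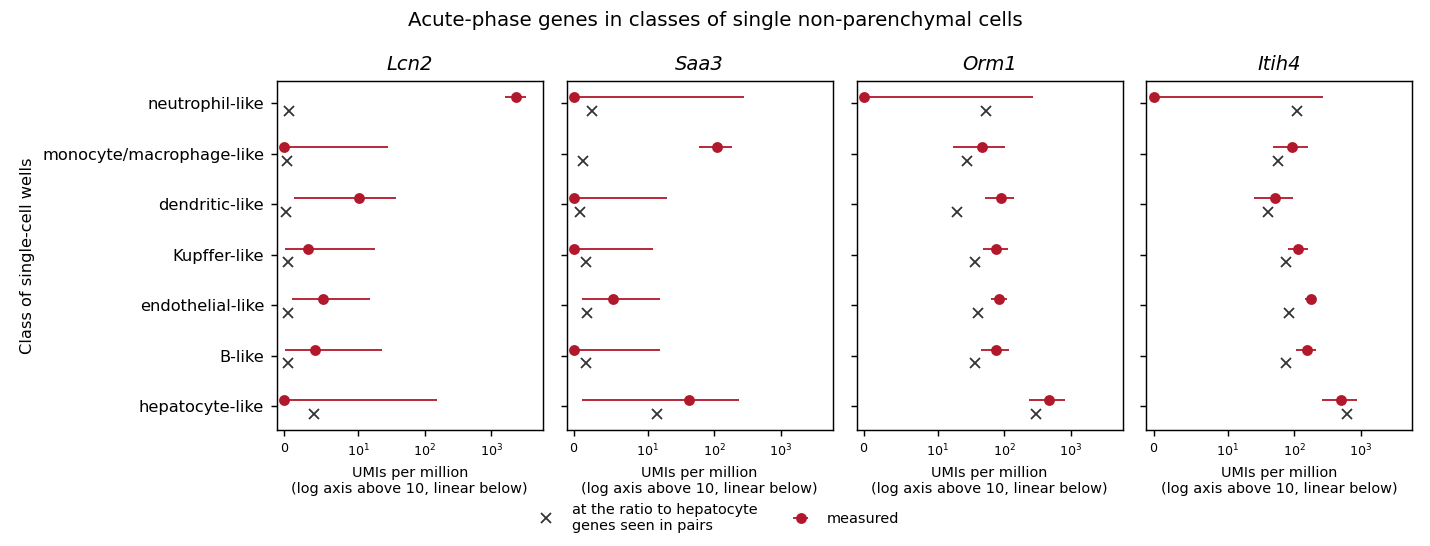
CPM of Lcn2, Saa3, Orm1 and Itih4 in 7 classes of single-cell wells, with 95% Poisson intervals, beside the level at the ratio to hepatocyte genes seen in pairs (crosses), on an axis that is logarithmic above 10. Lcn2 stands out in neutrophil-like wells and Saa3 in monocyte/macrophage-like wells, while Orm1 and Itih4 lie within 5-fold of the crosses in every class but the neutrophil-like one, where both are at 0.

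The cytokines that drive the response were also unevenly spread over these classes. Il1b, interleukin-1 beta, had 125 UMIs in Kupffer-like wells, 85 in neutrophil-like and 67 in monocyte/macrophage-like wells, and its level was 409, 6323 and 519 CPM. Like Lcn2, it is among the leading genes of the neutrophil-like cluster, so its level there is a description. Hepatocyte-like wells had 337 CPM of Il1b (145 to 664) from 8 UMIs. These 30 wells had 9 hepatocyte markers at least 2-fold higher but also 8 markers of another list. Hepatocyte genes made up 6.90% of their UMIs. Whether hepatocytes held that Il1b was not tested. Il1a, interleukin-1 alpha, had 113 UMIs in endothelial-like wells (198 CPM) and 17 in Kupffer-like wells (55.7 CPM). Il6 had at most 2 UMIs in any class. The single cells came from older mice than the pairs, and nothing links them to blocks 1 and 2.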

How the data were processed

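The authors deposited 2 tables of raw counts, with a gene symbol in each row and a well in each column, per the file headers, and the values are whole UMIs. The submitters' processing notes name bcl2fastq 2.15.0.4 and the mm9 build. Which aligner and annotation were used is not given in the sources used here. Members and gene lists were chosen with earlier results of these data known.

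The 92 rows of ERCC spike-in RNA (0.715% of pair UMIs) were left out. Levels are UMIs per 1000000 gene UMIs (CPM), summed over wells, with exact Poisson intervals. Ratios have exact conditional binomial intervals. Pairs needed at least 1000 UMIs and 20 landmark UMIs, which left out 3. Zone comparisons needed 30 UMIs over both zones, were computed over all genes without the landmarks, and counted a fold of 1.5. A block's direction needed 10 UMIs in the block. Layers without blocks 1 and 2 were set anew on those pairs.

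Named genes were the 10 members, up to 4 genes of largest zone ratio per list with at least 100 UMIs, and the 5 genes most like each member with at least 0.2 UMIs per pair. Genes named for their level in blocks 1 and 2 were chosen after their values were seen.

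Single cells with at least 300 UMIs were scaled to a total of 1000 and log-transformed, and Leiden clusters at resolution 1 were taken on 15 neighbours in 30 components of the 2000 most variable genes. A cluster took a name from 3 or more markers at least 2-fold higher there. Doublets were not called in these plate-sorted wells. No count model was fitted, since each table is 1 sample. The zone step was tested on simulated Poisson counts without spread between pairs or blocks, so that test does not cover genes concentrated in few pairs. Python 3.11.15, numpy 2.4.6, scipy 1.17.1, pandas 2.3.3, scanpy 1.11.5, igraph 0.11.9 and matplotlib 3.10.9 were used. Alternatives tried were thinning, depth minimums, other scalings, other zone limits, blocks left out and other clusterings.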

Additional observations from a re-analysis of the deposited data

How the results depend on the processing

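No paired analysis was possible because the wells cannot be assigned to mice. Over all blocks, 5 members were higher in pericentral and 4 in periportal pairs with intervals apart from 0. The counts were 1 and 7 with zones taken within blocks, with blocks 1 and 2 left out, and with both. Scaling by the UMIs of the other genes gave 3 on the pericentral side and 5, with Crp, on the periportal side. Layer 1 against layer 6 gave 1 on the periportal side. Leaving out 1 block at a time gave 3 to 5 and 3 to 4, with 3 pericentral members without block 1. Among ratios with an interval apart from 0, those that changed sign were 0.20 for Saa3 and 0.029 for Apcs between layers 1 and 6, and 0.20 for Saa3 without the top 1% of pairs. With zones within blocks they were -0.25 for Saa1, -0.29 for Saa2, -0.26 for Orm2 and -0.32 for Lcn2. Without blocks 1 and 2 they were -0.19, -0.86 and -0.38 for Saa1, Saa2 and Orm2, the same without the pair of most Saa2 as well, and -0.16, -0.78 and -0.32 with zones within those blocks as well. Crp, whose interval includes 0, had 0.022 between layers 1 and 6, 0.059 when thinned to 2000 UMIs and 0.0015 without block 15. In 2 other scalings the Crp interval lay below 0. The ratio was -0.13 (-0.20 to -0.07) per UMIs of the other genes and -0.10 (-0.17 to -0.04) with the median gene's ratio taken off. The cause was not tested. Over all blocks, members with a squared coefficient of variation above 1 numbered 6, and 5 to 6 without each block in turn. Around block and layer means, 1 member (Saa3) was above 1 over all blocks. Without blocks 1 and 2, values around these means were 9.19 for Saa1, 28.3 for Saa2, 19.7 for Saa3 and 21.1 for Lcn2. The other members were below 1 there. Members whose highest block was over 10 times the lowest numbered 6, and 3 without blocks 1 and 2. The settings that leave out blocks 1 and 2, the pair with most Saa2 or the members were chosen after seeing the data.

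Another landmark list was not run. At 500 UMIs no cluster was neutrophil-like, and an unnamed cluster of 138 wells held 14 of 22 Lcn2 UMIs. At a Leiden resolution of 0.5 no class held Saa3 under the same name. Depth limits Lcn2, Saa3 and Orm2 most, which had 351, 1163 and 661 UMIs over the 15 blocks.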

Other observations

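Orm3, a further gene of the alpha-1-acid glycoprotein family, was not among the members and had 161 UMIs in the pair table. It had 68.5 CPM in block 1 and 37.0 in block 2, against 1.63 over the other 15 blocks together, on the side of Orm1 and Orm2. Its counts may be shared with those copies. The genes lowest in blocks 1 and 2 were led by Pcsk4 and Lpin1. Among them was Nr1d2, a clock gene, with 0 and 6.37 CPM in blocks 1 and 2, against 38.5 to 61.7 in the other blocks. Dbp (10.5 and 2.55, against 41.6 to 120) and Per1 (0 and 2.55, against 11.7 to 31.1) were also among them. These block 1 values lie below its floor of 15.8 CPM.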
